A study of Homo sapiens with 15 samples.

Results

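The cells described here are the controls of the study, kept without PM2.5 under both of its protocols and compared with each other. BEAS-2B is an immortalized line that derives from human bronchial epithelium. It was cultured on collagen in serum-free Bronchial Epithelial Growth Medium. Of the 15 RNA-Seq libraries of the series, 6 are controls, chosen by their labels, with 3 experiments in the 24-h protocol (Control_24h) and 3 in the repeated protocol (Control_7d). The 24-h controls were plated, left overnight and given fresh medium alone for 24 h. The 7-day controls were plated at a lower density, washed with PBS and given fresh medium alone each day, and collected on day 7. The remaining libraries come from cells exposed to PM2.5, at 1 or 30 µg/cm2 in the 24-h protocol and at 1 µg/cm2 each day in the repeated protocol, and those at 1 µg/cm2 are used below as a second set of libraries from the same experiments. The p-values below rest on the spread between libraries within each condition, pooled over all 15 libraries unless a smaller fit is named. Control and PM2.5 libraries of the same experiment enter that fit as independent. Time in culture, plating density, the daily washes and the separate experiments all differ between both groups of controls and cannot be told apart. All cells are of 1 immortalized line, and nothing here comes from primary airway cells.

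Bronchial epithelium is renewed by basal cells, which carry TP63, KRT5 and NGFR and can give rise to secretory and ciliated cells. In culture, and at high density in particular, basal-like cells can instead take up squamous differentiation, in which small proline-rich proteins, involucrin and transglutaminases build a cornified envelope and desmosomes are strengthened. Growth of sparse cells is accompanied by lipid synthesis, glycolysis and the YAP and ERK programs, which respond to cell spreading and growth factors. These are general features of such cells and not results of the present libraries.

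Of the 58219 genes in the table of counts, 17599 passed edgeR's filter on low counts and were tested. The controls held 21865374 to 34724765 counted reads per library, so that 3 counts in a library, taken as the floor, equal 0.0903 to 0.141 CPM (counts relative to the counted reads of the library, with totals scaled by the trimmed mean of M-values, TMM). This floor covers counting error only. Experiment 2 of the 24-h protocol stood apart from the other 24-h controls. The root mean square of the log2 differences over genes was 0.722 to 0.804 between it and experiments 1 and 3, 0.436 between those 2, 0.343 to 0.376 within the 7-day controls and 0.865 to 0.942 between protocols. Results are therefore also given from a fit without the 24-h libraries of experiment 2. The share of mitochondrial counts was 3% to 4.4% in the 24-h controls and 2.73% to 2.9% in the 7-day controls. Epithelial markers were present in all 6 libraries, with 702 to 2525 counts of *EPCAM* and 1577 to 7023 of *CDH1*. The secretory markers *SCGB1A1*, *SCGB3A1* and *SCGB3A2* held 0 counts in every control library, and the ciliated cell regulator *FOXJ1* held 2 counts in 1 library and 0 in the others. Other markers on the ciliated list did hold counts, 61 to 170 for *CCDC78* and 9 to 53 for *DNAH5*. The leukocyte gene *PTPRC* was also at 0, but *CD14*, on the same list of blood markers, held 232 to 377 counts in the control libraries. None of the 6 fibroblast markers tested was called. Their summed level was 70.1 to 111 CPM in the 24-h controls and 67.4 to 97.1 CPM in the 7-day controls.

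Compared to the 24-h controls, the 7-day controls had 1958 genes with higher and 1902 genes with lower expression (called by edgeR's quasi-likelihood test where the Benjamini-Hochberg adjusted p was under 0.05 and the log2 fold-change was 0.6 or more in size). These are 11.1% and 10.8% of the genes tested, and 21.9% together, and this is the background for every list of genes below. Without 24-h experiment 2, 5564 genes passed, of which 3630 were among the 3860. The 24-h and 7-day libraries did not overlap in 3789 of the called genes, and in 52.3% of all genes tested. A log2 fold-change of 2 or more in size was reached by 574 called genes, of which 328 were higher and 246 lower. All 24-h controls lay at or under the floor in 69 of the rises, and all 7-day controls in 70 of the falls, and for such genes only a lower bound of the fold is given. Genes that rose had a median exon length of 5372 bases and those that fell one of 3703 bases, against 4218 bases for genes not called. Their median levels were 9.6, 35.2 and 17.9 CPM. In bulk libraries, a change in the RNA per cell and a change in the number of cells that express a gene cannot be told apart.

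**Figure D1:**
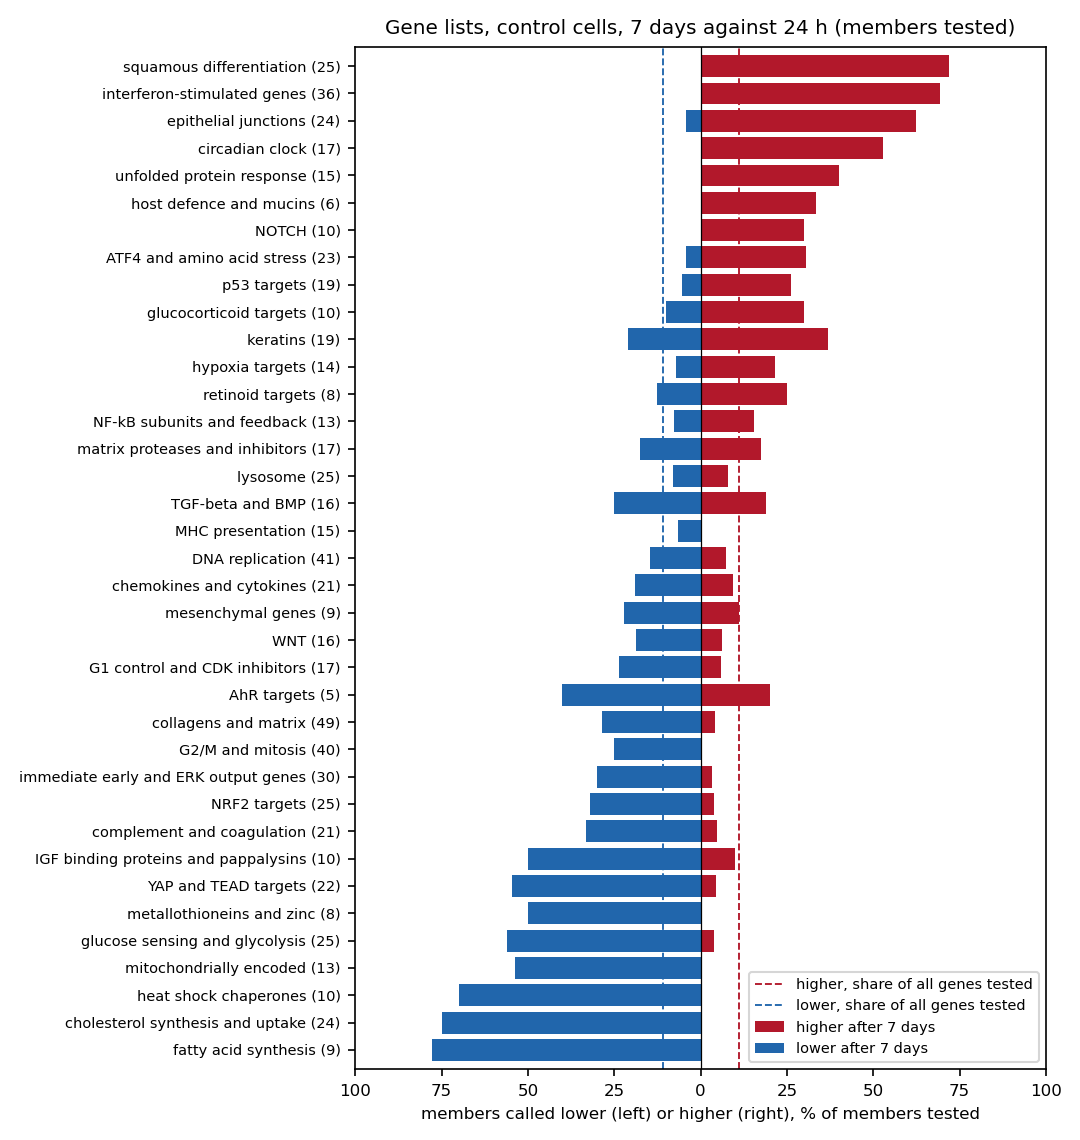
Share of tested members of each of 37 gene lists called higher (red, to the right) or lower (blue, to the left) in the 7-day controls than in the 24-h controls, in percent; the number of members tested is in parentheses and the dashed lines mark the shares of all genes tested, 11.1% and 10.8%. Squamous differentiation, with 18 of 25 members higher, stands at the top, and fatty acid synthesis, with 7 of 9 members lower, at the bottom.

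The largest rises among genes of at least 1 CPM whose libraries did not overlap were in serine proteases, surface glycoproteins and differentiation genes. *KLK7* (chromosome 19 from 50976482 to 50984099, GRCh38), a kallikrein that cleaves desmosomal proteins during shedding of squamous cells, was at 0.271, 0.659 and 0.39 CPM in the 24-h controls and at 25, 24.4 and 38 CPM in the 7-day controls (edgeR adjusted p = 8.06e-06, with a log2 fold-change of 6.1 and its SE of 0.529). *MUC16*, a membrane mucin of mucosal surfaces, was at 0.476 ± 0.228 CPM after 24 h and 26.3 ± 10.8 CPM after 7 days (SD, n = 3). *MYH14*, a non-muscle myosin heavy chain, rose from 0.282 ± 0.117 to 14 ± 2.23 CPM. In all 3 genes every 7-day library lay far above every 24-h library. *RHCG*, an ammonia channel, *S100A8*, a subunit of calprotectin, and the kallikrein *KLK8* had log2 fold-changes of 5.61, 5.22 and 5.06. For the other 6 of the 12 largest rises the 24-h controls were at or under the floor. The fold was at least 20.3 for *TMPRSS4* and at least 17.7 for *TMPRSS13*, both membrane-bound serine proteases, at least 15.2 for the cornified envelope gene *SPRR3*, at least 15 for *ADARB2*, a brain-enriched relative of the RNA-editing enzymes, at least 13.4 for *MB* (myoglobin) and at least 9.91 for *FYB1*, an adaptor best known from T cells and platelets.

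The largest fall with counts in both groups was in *CPA4*, a secreted carboxypeptidase. It was at 47.7, 36.5 and 48.3 CPM in the 24-h controls and at 0.722, 0.45 and 0.314 CPM in the 7-day controls (edgeR adjusted p = 1.87e-06, with a log2 fold-change of -6.49 and its SE of 0.412). The fibrinogen chain gene *FGB* was at 4.28, 4.33 and 5.28 CPM after 24 h and at or under the floor in every 7-day control, at least 45.6-fold lower. The other fibrinogen chains fell as well, *FGA* at least 5.09-fold and *FGG* by 3.54 on the log2 scale, so that all 3 genes of the cluster on chromosome 4 (154562956 to 154612967) were called. Bounds of at least 19.6-fold lower for *WDFY4*, 15.4-fold for *ZBED2*, 12.7-fold for *LNCOG*, 11.8-fold for *ABCB5* and 11-fold for *SH2D2A* complete the falls to the floor. In several of the falls 24-h experiment 2 lay near the 7-day controls. *DMBT1*, a scavenger receptor of mucosal surfaces, was at 9.63 and 8.89 CPM in 24-h experiments 1 and 3 but at 0.8 CPM in experiment 2, against 0.129 to 0.228 CPM after 7 days. *MARCHF4* was at 8.67 and 7.83 CPM but at 0.33 CPM in experiment 2. *ABCB5* went the other way, at 2.78 CPM in experiment 2 and 0.391 and 0.425 CPM in the others. *LCE1C*, a late cornified envelope gene, *HMCN2* and *GRIP2* had log2 fold-changes of -4.12, -3.96 and -3.92.

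Among genes with a mean of at least 50 CPM, the smallest p-values belonged to *MAL2*, *MCAM*, *PLK2*, *GJA1*, *UCHL1* and *DSG3*. *MAL2*, which serves apical transport in polarized epithelium, was at 28.2, 28.3 and 28.6 CPM after 24 h and at 142, 132 and 148 CPM after 7 days (log2 fold-change 2.31, SE 0.0949, edgeR adjusted p = 1.82e-08). *DSG3*, a desmosomal cadherin of stratified epithelium, rose from 24.3 ± 2.41 to 222 ± 23.6 CPM (SD, n = 3). *GJA1*, the gap junction protein connexin 43, was at 122, 153 and 122 CPM after 24 h and at 26.9, 26.7 and 25.5 CPM after 7 days. *PLK2* fell from 93.6 ± 2.53 to 23 ± 1.68 CPM, *MCAM*, an adhesion molecule also called CD146, from 349 ± 12.3 to 128 ± 1.86 CPM, and *UCHL1*, a deubiquitinating enzyme, from 126 ± 10.6 to 31 ± 1.7 CPM. In none of these 6 genes did a 24-h control come near the 7-day level.

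**Figure D2:**
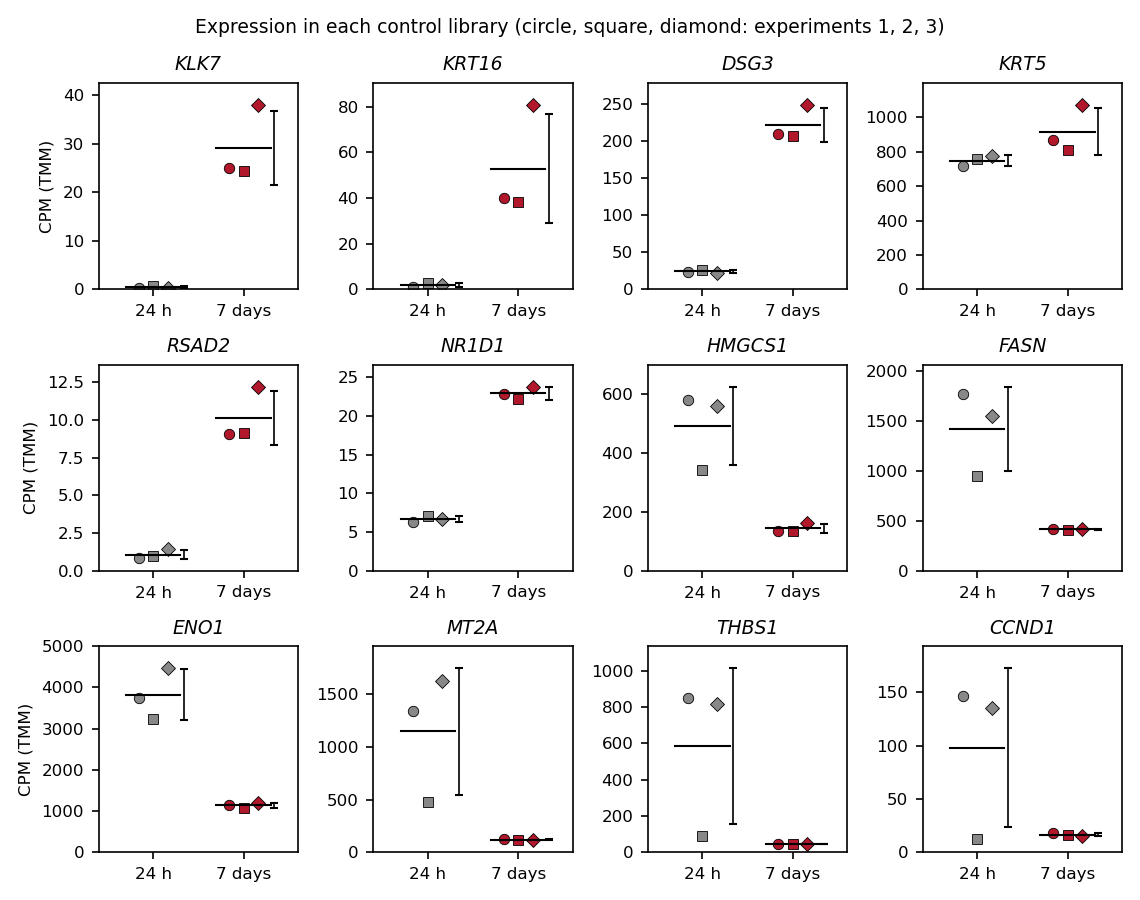
Expression of 12 genes in each of the 6 control libraries, in TMM-scaled CPM on linear axes that start at 0; symbols mark experiments 1 to 3, horizontal bars the means and vertical bars the SD (n = 3). *KLK7*, *KRT16*, *DSG3*, *RSAD2* and *NR1D1* are higher in each 7-day library, *KRT5* differs little, and the square of 24-h experiment 2 lies far below the other 24-h libraries for *MT2A*, *THBS1* and *CCND1*.

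Of the 25 squamous differentiation genes tested, 18 rose and none fell, with a median log2 fold-change of 3.73 (2.77 with genes at the floor set to their bound), against 0.02 for all genes tested. The late cornified envelope (LCE) genes tested are not on this list, and 3 of those 4 fell, *LCE1C* with a log2 fold-change of -4.12. Among the precursors of the cornified envelope, *SPRR1A* was at 0 CPM in all 24-h controls and at 0.532, 0.418 and 1.35 CPM after 7 days, at least 6.82-fold higher, and *IVL* (involucrin) was at least 3.88-fold higher at 0.266, 0.257 and 0.784 CPM. Among the enzymes, *TGM1*, the transglutaminase that cross-links the envelope, rose from 3.37, 7.68 and 3.54 CPM to 16.8, 16.3 and 19.9 CPM, and the kallikreins *KLK5*, *KLK6* and *KLK10* had log2 fold-changes of 3.52, 3.29 and 4.26. *CSTA*, a protease inhibitor of the envelope, and *GRHL3*, a transcription factor of barrier formation, rose by 1.69 and 1.67. *PPL* and *EVPL*, plakins that scaffold the envelope, had log2 fold-changes of -0.03 and 0.17 and were not called. Experiment 3 was the highest of the 7-day controls in *KRT16*, *KLK7*, *SPRR1A*, *IVL* and *S100A8*. Leaving it out, or leaving out 24-h experiment 1 or 3, left 12 members called, and *IVL*, *SPRR1A*, *SPRR1B* and *S100A9* lost the call in each of these fits, with edgeR adjusted p of 0.0961, 0.075, 0.0744 and 0.0767 without 7-day experiment 3. *SPRR1A* and *S100A9* also lost it without the 24-h control of experiment 2. Without the 24-h libraries of experiment 2, 18 of 26 members rose.

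Keratins changed in both directions. *KRT16*, a keratin of activated and squamous cells, was at 1.23, 2.87 and 1.81 CPM after 24 h and at 39.9, 38.2 and 80.7 CPM after 7 days (log2 fold-change 4.78). *KRT15* of basal cells rose from 2.47, 8.43 and 2.41 CPM to 33.6, 30 and 60.5 CPM, and *KRT6A* by 0.88 on the log2 scale. The mucosal keratins *KRT4* and *KRT13* were at least 8.24-fold and at least 4.62-fold higher. The simple epithelial keratins *KRT18* and *KRT7* fell, with log2 fold-changes of -1.35 and -1.05, as did *KRT80* with -1.52. *KRT5* of basal cells was at 714 to 774 CPM after 24 h and 812 to 1070 CPM after 7 days, a log2 fold-change of 0.29 that did not pass the test (edgeR adjusted p = 0.224). In all, 7 of 19 keratins rose and 4 fell. Only 4 rose without 24-h experiment 1, and *KRT4* lost its call without 24-h experiment 1 or 3 (edgeR adjusted p = 0.0529 and 0.0544).

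Junction genes rose with them. Of 24 epithelial junction genes, 15 rose and 1 fell, with a median log2 fold-change of 1.25, and 16 rose without 24-h experiment 2. *CDH1* (E-cadherin) was at 86.9, 74.3 and 81.6 CPM after 24 h and at 205, 198 and 220 CPM after 7 days. In the desmosomes, *DSC2*, *DSC3* and *PKP1* had log2 fold-changes of 2.12, 2.37 and 2.51, while *PKP2*, a plakophilin also found in simple epithelium, fell with -1.13. At tight junctions, *CLDN4* rose from 2.05, 2.21 and 2.76 CPM to 14.7, 14.4 and 16.1 CPM, and *TJP3* had a log2 fold-change of 2.73. *ESRP1*, a splicing factor of epithelial cells, rose by 1.88. Among 9 mesenchymal genes, 1 rose and 2 fell. *CDH2* (N-cadherin) fell from 4.19 to 7.83 CPM to 1.09 to 1.82 CPM and *VIM* (vimentin) had a log2 fold-change of -1.18. Of the 6 airway basal markers, *TP63*, *NGFR* and *KRT15* rose, *NGFR* from 5.13 ± 0.748 to 28.4 ± 1.71 CPM (SD, n = 3). The basal keratin *KRT14*, at 10.3 to 12.1 CPM after 24 h and 5.37 to 7.53 CPM after 7 days, and *DLK2*, at 11.9 to 18.6 CPM and 9.13 to 12.4 CPM, had log2 fold-changes of -0.81 and -0.46 and were not called, though *KRT14* was called lower in the fit of the 6 controls alone (edgeR adjusted p = 0.00859). Both *NOTCH1* (log2 fold-change 2.01) and its target *HES1* (1.17) rose within the NOTCH list, in which 3 of 10 members were called. The third, *NOTCH3*, lost the call without 24-h experiment 3 (edgeR adjusted p = 0.0537).

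**Figure D3:**
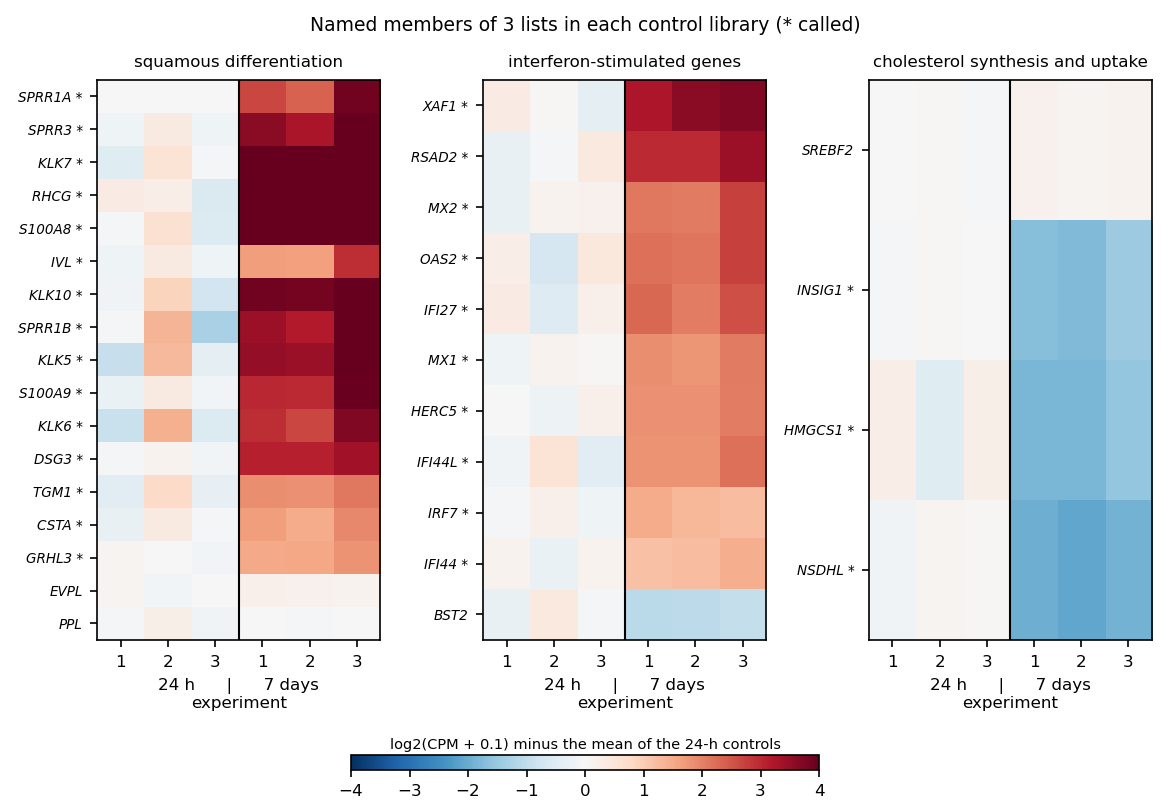
Expression of the members named in the text from 3 lists (squamous differentiation, interferon-stimulated genes and cholesterol synthesis) in each control library as log2(CPM + 0.1) minus the mean of the 24-h controls, with the colour scale limited to -4 to 4 and asterisks on called genes; columns are experiments 1 to 3 after 24 h and 1 to 3 after 7 days. Most of the squamous and interferon-stimulated genes shown are red and most of the cholesterol genes shown blue in all 3 columns of the 7-day controls, and the second column differs from its neighbours for several squamous genes.

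Genes that cells turn on in response to interferon formed the next group. Of 36 interferon-stimulated genes, 25 rose and none fell, with a median log2 fold-change of 0.96, and 28 rose and 1 fell without 24-h experiment 2. The largest differences were in *XAF1*, at 0.482, 0.377 and 0.248 CPM after 24 h and 4.22, 5.53 and 5.83 CPM after 7 days, and in the antiviral gene *RSAD2*, at 0.843, 0.989 and 1.42 CPM and 9.05, 9.1 and 12.2 CPM (log2 fold-change 3.22, SE 0.298, edgeR adjusted p = 1.13e-05). The GTPases *MX1* and *MX2* and the oligoadenylate synthetase *OAS2* had log2 fold-changes of 1.92, 2.56 and 2.33. *IRF7*, a transcription factor of the response, rose by 1.36. *BST2* (tetherin), at 111 to 180 CPM after 24 h and 65.3 to 71 CPM after 7 days, had a log2 fold-change of -1.05 with an edgeR adjusted p of 0.06. It was called lower with no filter, with the replicate block, without 24-h experiment 2, with the 6 controls alone and with DESeq2 (adjusted p = 5.78e-07 to 0.0248). Antigen presentation genes of the MHC list, which interferon also induces, had 0 of 15 members called higher and 1 lower with edgeR, and 5 higher without the 24-h libraries of experiment 2.

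The interferon-stimulated response element, bound by interferon-activated transcription factors, was looked for as GAAA, any 2 bases and GAAA again on either strand of RefSeq promoters of build GRCh38.p14, from 250 bases before to 50 after the first start listed for each gene. It was found in 18 of 28 promoters of the list (64.3%) and in 3.65% of all 27305 promoters. Of the 17 called members with a promoter 9 had it, a lower share than over the whole list. A match is a description of the letters and not of binding. The 5 called genes with the motif and the largest rises are shown, each as 30 bases in the direction of the gene with the motif in capitals. They were picked by call and by motif, so they do not show that the motif goes with the rise.
*IFI27* (chr14:94110618-94110647, plus strand, log2 fold-change 2.3): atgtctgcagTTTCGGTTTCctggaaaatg
*MX1* (chr21:41420559-41420588, plus strand, 1.92): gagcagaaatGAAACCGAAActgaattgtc
*HERC5* (chr4:88456984-88457013, plus strand, 1.91): ctcattacagTTTCCTTTTCcttttcgatt
*IFI44L* (chr1:78620274-78620303, plus strand, 1.9): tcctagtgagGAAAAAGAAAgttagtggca
*IFI44* (chr1:78649761-78649790, plus strand, 1.28): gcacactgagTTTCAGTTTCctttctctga
In *IFI27*, *HERC5* and *IFI44* the motif is on the opposite strand, so its reverse complement is what is printed. The same search for the sterol regulatory element (TCACNCCAC) found 1 of 18 promoters of the cholesterol list, against 1.15% of all promoters. For the E-box (CACGTG), it found 5 of 17 promoters of the clock list, against 7.43% of all promoters. The heat shock element was in 2 of 11 promoters of the chaperone list, against 0.487% of all promoters. The metal response element was in 3 of 3 promoters of the metallothionein list, against 29.3% of all promoters.

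Lipid synthesis went the other way. Of 24 genes of cholesterol synthesis and uptake, 18 fell and none rose, with a median log2 fold-change of -1.24, and 21 fell without 24-h experiment 2. Early in the pathway, *HMGCS1* was at 577, 340 and 559 CPM after 24 h and at 135, 135 and 163 CPM after 7 days (log2 fold-change -1.77). Late in the pathway, the sterol dehydrogenase *NSDHL* fell from 198 ± 17.7 to 50.3 ± 3.43 CPM (SD, n = 3), and *INSIG1*, the sterol-sensing retention protein, had a log2 fold-change of -1.63. *SREBF2*, which encodes the transcription factor of the pathway, was at 394 to 419 CPM after 24 h and 434 to 453 CPM after 7 days and was not called. For fatty acids, 7 of 9 genes fell. *FASN*, the fatty acid synthase, went from 1770, 955 and 1550 CPM to 416, 411 and 424 CPM, and *SCD*, *ELOVL6* and the regulator *SREBF1* had log2 fold-changes of -1.14, -1.6 and -1.04.

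Of 25 genes of glucose sensing and glycolysis, 14 fell, with *SLC2A1*, the glucose transporter, as the 1 rise (log2 fold-change 0.74). *ENO1* was at 3750, 3240 and 4470 CPM after 24 h and at 1140, 1080 and 1200 CPM after 7 days, *LDHA* and *PGK1* had log2 fold-changes of -1.48 and -1.4, and the lactate exporter *SLC16A3* one of -2.01. *TXNIP* and *ARRDC4*, which cells induce when sugar phosphates accumulate, are counted among these falls. *TXNIP* was at 117 to 123 CPM in all 24-h controls and at 25.7, 24.8 and 14 CPM in the 7-day controls. Among 14 hypoxia targets, 3 rose and 1 fell, for example *ADM* (adrenomedullin) from 10.2 to 10.8 CPM to 31.2 to 42.6 CPM and *ANGPTL4* with a log2 fold-change of -3.39, the latter at 25.8 and 30 CPM in 24-h experiments 1 and 3 but at 2.92 CPM in experiment 2.

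YAP and TEAD, which act in spread and growing cells, have targets among the falls. Of 22 targets, 12 fell and 1 rose, with a median log2 fold-change of -0.9. *AXL*, a receptor tyrosine kinase, was at 559, 451 and 578 CPM after 24 h and at 178, 168 and 175 CPM after 7 days. In other targets the 24-h experiments differed. *CCN2* was at 311, 31.2 and 346 CPM after 24 h and at 36.6, 33.3 and 42.4 CPM after 7 days, so 24-h experiment 2 was below the 7-day controls. *ANKRD1*, at 21.1, 5.6 and 22.5 CPM against 1.74 to 2.76 CPM, and *CCN1*, at 288, 113 and 318 CPM against 73 to 99.8 CPM, were lower there too but did not overlap. The call of *CCN1* was lost without 24-h experiment 3 or without 7-day experiment 1 or 2 (edgeR adjusted p = 0.0652, 0.057 and 0.0643).

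Experiment 2 of the 24-h protocol lay toward the 7-day controls in 57.3% of all called genes (2213 of 3860). It did so in 8 of the 10 called ERK output genes and in 7 of the 16 called matrix genes, the latter below the share of all called genes. Among other lists, it did so in 14 of the 18 called squamous genes and all 7 called heat shock chaperones. It did so in 0 of the 7 called mitochondrially encoded genes. Of 30 immediate early and ERK output genes, 9 fell and 1 rose. Without the 24-h libraries of experiment 2, 17 of 31 fell and 4 rose, and with any other control library left out 5 fell. *PHLDA1* was at 68, 10.6 and 72.6 CPM after 24 h and at 7.46 to 9.77 CPM after 7 days, and *DUSP5* and *FOSL1* followed this pattern, with log2 fold-changes of -1.9 and -1.78. *DUSP6*, the ERK phosphatase, was at 23, 2.07 and 27.5 CPM against 5.21 to 6.23 CPM and was called only in fits without that library and in those with no filter or with DESeq2. In the matrix list 14 of 49 members fell and 2 rose, and 8 fell without 7-day experiment 3. *THBS1* (thrombospondin) was at 849, 89.9 and 818 CPM after 24 h and at 47.2, 44.1 and 45.4 CPM after 7 days, and *VCAN* (versican) had a log2 fold-change of -3.22. The inhibitor of metalloproteinases *TIMP3* rose by 1.96. *FN1* (fibronectin), with a log2 fold-change of -1.43, lost its call when any control library other than 24-h experiment 2 was left out, with edgeR adjusted p of 0.0538 to 0.0687. *TGM2*, a transglutaminase that retinoids induce, was at 97.7, 14.4 and 101 CPM after 24 h and at 3.67 to 6.17 CPM after 7 days.

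Of 40 G2/M and mitosis genes, 10 fell and none rose, with a median log2 fold-change of -0.44, and their summed level was 10700 to 11500 CPM in the 24-h controls and 8670 to 8750 CPM in the 7-day controls. Of 41 replication genes, 6 fell and 3 rose. *CCNB1* (cyclin B1) had a log2 fold-change of -1.2, and *CCNE1* (cyclin E1) fell from 9.74 ± 0.702 to 3.65 ± 0.437 CPM (SD, n = 3). *MKI67*, the proliferation marker, was at 643 to 944 CPM after 24 h and 728 to 780 CPM after 7 days, and its log2 fold-change of 0.01 turned negative in 9 of the 15 alternatives, without passing the test. The D cyclins were the largest falls of the G1 list. *CCND2* was at 24.2, 5.84 and 27.1 CPM against 2.09 to 3.73 CPM. *CCND1* was at 147, 12.2 and 135 CPM after 24 h and at 17.9, 16.5 and 15.1 CPM after 7 days, so 24-h experiment 2 was again below the 7-day controls, and the call was lost without any 1 of the other 5 control libraries (edgeR adjusted p = 0.0626 to 0.0744).

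Stress genes divided by pathway. Of 10 heat shock chaperones, 7 fell and none rose. *HSP90AA1* was at 3980, 1790 and 4370 CPM after 24 h and at 721, 694 and 810 CPM after 7 days, *HSPE1* had a log2 fold-change of -2, and *HSPA8*, at 2920, 831 and 3330 CPM against 695 to 785 CPM, was near the 7-day level in 24-h experiment 2. Of 8 genes on the list of metallothioneins, which bind zinc and copper, and other zinc genes, 4 fell. *MT2A* went from 1340, 477 and 1630 CPM to 128, 118 and 115 CPM, and *MT1E* and *MT1X* had log2 fold-changes of -2.48 and -1.41. Of 25 NRF2 targets, 8 fell and 1 rose, with *NQO1* and *HMOX1* at -1.68 and -1.58. Mitochondrially encoded transcripts fell in 7 of 13 members, and in 3 without 7-day experiment 2 or 3, and *MT-CYB* (log2 fold-change -1.16) lost its call without the 24-h control of experiment 2 or without any 1 of the 7-day controls (edgeR adjusted p = 0.0556 to 0.0795).

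The unfolded protein response and the ATF4 list went up in part. In the former, 6 of 15 members rose and none fell, among them *DNAJB9* and *XBP1* with log2 fold-changes of 1.45 and 1.11. The median log2 fold-change of that list was 0.18. Without the 24-h libraries of experiment 2 its median was 0.06, with 5 rises and 1 fall. Of 23 ATF4 and amino acid stress genes, 7 rose and 1 fell, 17 rose without the 24-h libraries of experiment 2, and 3 rose without 24-h experiment 3. *ALDH1L2*, a mitochondrial enzyme of folate metabolism, was at 31.3, 43.4 and 22.6 CPM after 24 h and at 165, 172 and 166 CPM after 7 days, and *TRIB3* had a log2 fold-change of 1.59. *DDIT3* (CHOP) was at 11.8, 48.1 and 12.9 CPM against 120 to 145 CPM and lost its call without 24-h experiment 3 (edgeR adjusted p = 0.0585). *GDF15*, a secreted stress factor on the p53 list, rose from 20.1 ± 7.02 to 184 ± 16.1 CPM (SD, n = 3), while that list as a whole had 5 rises and 1 fall among 19 members.

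Of 17 circadian clock genes, 9 rose and none fell, with a median log2 fold-change of 0.92, and 10 rose without 24-h experiment 2. The repressor *NR1D1* (REV-ERB alpha) was at 6.29, 7.06 and 6.73 CPM after 24 h and at 22.8, 22.2 and 23.8 CPM after 7 days. Its relative *NR1D2*, *PER3* and the activator *RORA* had log2 fold-changes of 1.66, 1.51 and 2.2. *BMAL1*, which drives the clock together with CLOCK, was at 21.4 to 25.3 CPM against 29.8 to 31.2 CPM and was not called (log2 fold-change 0.36). The hour of collection is not given in the sources used here.

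Among secreted signals, *TSLP*, an epithelial cytokine of allergic inflammation, was at 0.723, 0.753 and 0.85 CPM after 24 h and at 4.41, 4.47 and 4.05 CPM after 7 days. *IL6* and the growth factor *CSF3* fell, *IL6* from 2.62, 0.706 and 2.23 CPM to 0.418 to 0.494 CPM and *CSF3* from 3.31, 0.188 and 2.87 CPM to 0.076 to 0.225 CPM, and *CXCL1* had a log2 fold-change of -1.88 that did not pass without 24-h experiment 3 or 7-day experiment 3 (edgeR adjusted p = 0.0675 and 0.0725). In all, 2 of 21 chemokines and cytokines rose and 4 fell, close to the background for the rises, and 5 rose and 10 fell of 23 without the 24-h libraries of experiment 2. *LCN2* (lipocalin 2), which withholds iron from bacteria, rose from 1.16 ± 0.951 to 16.9 ± 1.84 CPM (SD, n = 3). *BMP7* rose with a log2 fold-change of 4.25, from 0.0942 to 0.142 CPM to 1.61 to 3.39 CPM. Its 24-h values lay near the floor of 0.0903 to 0.141 CPM, so the size of its fold is uncertain. *DKK1*, a secreted WNT inhibitor, fell with a log2 fold-change of -2.7. *GPNMB*, a glycoprotein of lysosomes, rose by 2.33, within a list in which 2 of 25 members rose and 2 fell.

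The other lists are given by their counts, against 11.1% of all genes tested higher and 10.8% lower. In the list of IGF binding proteins and pappalysins 1 of 10 members rose and 5 fell (50%). Among complement and coagulation genes, to which the fibrinogens belong, 1 of 21 rose and 7 fell (33.3%). Of the matrix proteases and their inhibitors, 3 of 17 rose and 3 fell, of TGF-beta and BMP genes 3 of 16 rose and 4 fell, and of WNT genes 1 of 16 rose and 3 fell. Glucocorticoid targets had 3 rises and 1 fall among 10, retinoid targets 2 rises and 1 fall among 8, NF-kB subunits and feedback genes 2 rises and 1 fall among 13, and targets of the aryl hydrocarbon receptor 1 rise and 2 falls among 5, with *CYP1B1* at a log2 fold-change of -1.48. Only 6 of the 13 host defence and mucin genes listed were tested, and the 2 that rose were *LCN2* and *MUC16*. Of the G1 list 1 of 17 rose and 4 fell. Among cell type markers, 3 of 6 epithelial ones rose and 3 fell, 3 of 6 basal ones rose, and 1 of 4 ciliated and the 1 endothelial marker tested fell, at summed levels of 3.91 to 7.11 CPM and 1.25 to 2.92 CPM over all controls.

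Related genes that lie together on a chromosome, a grouping made after their values were seen, did not all move alike. Of 8 kallikrein genes tested on chromosome 19 (50819148 to 51084245), 6 rose. On chromosome 1, 3 of 6 SPRR genes tested rose (152947154 to 153150869), while 3 of 4 LCE genes tested in the neighbouring interval (152510844 to 152843983) fell. The S100A genes of that chromosome (151982915 to 153632039) had 3 rises and 6 falls among 14 tested. Of 8 MT1 and MT2 genes tested on chromosome 16 (56608199 to 56684196), 5 fell.

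The same protocols could be compared in cells given 1 µg/cm2 of PM2.5, in other libraries of the same experiments. Those libraries entered the fit of all 15 libraries, and so its filter and its estimate of the spread, but not the control means. There, 1491 genes (8.47%) were higher and 1452 (8.25%) lower after 7 days than after 24 h. Of the control rises, 1056 were among them, which is 53.9% of the control rises and 70.8% of those at 1 µg/cm2. Of the falls, 1012 were shared, 53.2% and 69.7%, and 2 genes were called in opposite directions. The sign was the same for 97.5% of the genes called in controls, with no share over all genes tested to set beside it. Both comparisons come from the same experiments, so they share any difference between those experiments. By list, 22 of 25 squamous genes and 20 of 36 interferon-stimulated genes rose, and 20 of 24 cholesterol genes fell. Of the 30 immediate early and ERK output genes 4 rose and 0 fell there with edgeR, with a median log2 fold-change of 0.17, against 1 and 9 and a median of -0.67 in the controls. Of the 6 airway basal markers 1 rose, against 3 in the controls. No member of these last 2 lists was called in the edgeR test of the difference between both comparisons, given below. A difference of either list between the comparisons was therefore not shown. *KLK7* had a log2 fold-change of 6.39, *CPA4* one of -6.2 and *MT2A* one of -3.33, close to the control values of 6.1, -6.49 and -3.25.

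Some genes had different values in both comparisons. *FYB1*, at least 9.91-fold higher in the controls, was at 0.0496 to 0.578 CPM after 24 h and 0.0624 to 0.356 CPM after 7 days at 1 µg/cm2. *TXNIP* was at 124, 174 and 137 CPM and 119, 114 and 355 CPM there, and *KRT15* at 3.72 to 8.77 CPM and 10.3 to 12.4 CPM. *CYP1A1*, which polycyclic aromatic hydrocarbons in PM2.5 induce, was at 88.9 to 152 CPM and 30.5 to 32.2 CPM, against 0.565 to 1.45 CPM and 0.941 to 2.89 CPM in the controls. A test of the difference between both comparisons called 0 of 17599 genes with edgeR, with 1245 at an unadjusted p under 0.05 and a lowest adjusted p of 0.351, and 75 genes with DESeq2. Without the 24-h libraries of experiment 2, the edgeR test called 1766 genes. Whether *FYB1*, *TXNIP*, *KRT15* or *CYP1A1* differ between both comparisons was therefore not shown in the fit of all libraries, with adjusted p of 0.351, 0.351, 0.444 and 0.351 for the difference from edgeR.

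**Figure D4:**
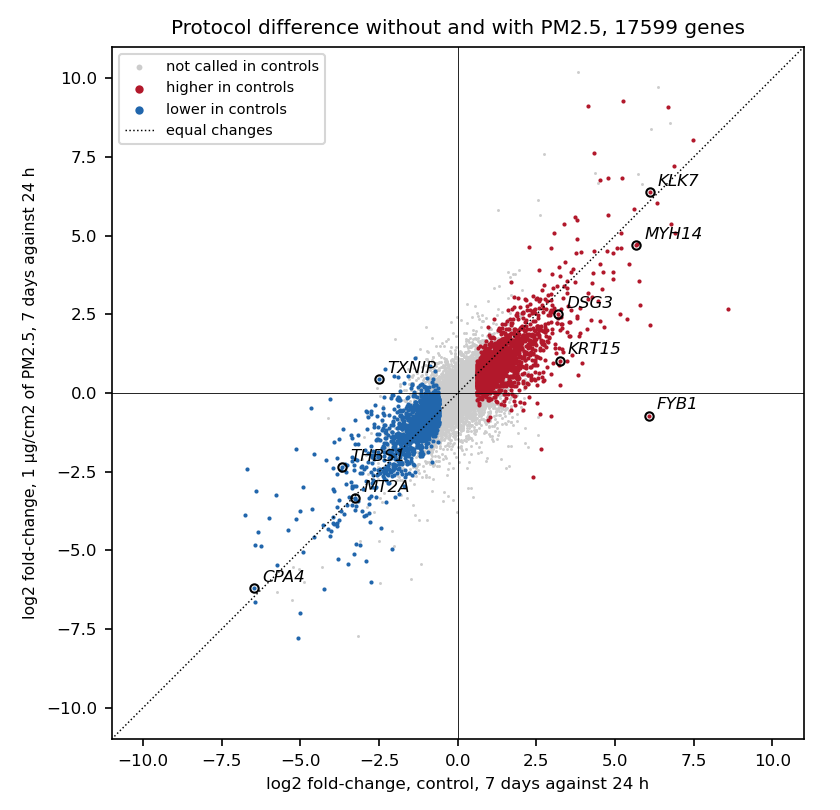
Log2 fold-change from 24 h to 7 days of 17599 genes in controls (horizontal) and in cells given 1 µg/cm2 of PM2.5 (vertical), with genes called in the controls in red or blue and the dotted line at equal changes; fitted values of genes at the floor are no bounds. *KLK7*, *CPA4* and *MT2A* lie near the line, and *FYB1*, *TXNIP* and *KRT15* lie away from it.

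Exons of some of the genes named overlap those of another tested gene, and the strand used in counting is not given in the sources used here, so their values are uncertain. They are *KLK8*, *GRIP2*, *MCAM*, *KRT18*, *KRT7*, *VIM*, *RSAD2*, *HMGCS1*, *SREBF2*, *SREBF1*, *SLC16A3*, *SLC2A1*, *HSP90AA1*, *HSPE1*, *AXL*, *TGM2*, *CCND1*, *DDIT3*, *ALDH1L2*, *DNAJB9*, *ANGPTL4*, *NR1D1*, *PER3* and *RORA*. Reads of *KRT16*, *KRT6A*, the SPRR and MT1 genes, *HSPA8*, *HSPE1* and *ENO1* can also match close paralogs or processed pseudogenes.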

How the data were processed

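BEAS-2B RNA was sequenced as poly-A libraries of single 50-base reads. The authors aligned reads with STAR and counted them per gene with featureCounts, and deposited 1 table of raw counts. The labels name hg19 and the methods GRCh38. The coordinates of 57188 of 57437 named genes lie within 100000 bases of GENCODE v44 (GRCh38), and GRCh38 is used here. The version of featureCounts, the annotation and the strand setting are not given in the sources used here.

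Counts were analysed with edgeR 4.0.16 in R 4.3.3. All 15 libraries were fitted with 1 mean per condition, TMM scaling and filterByExpr, leaving 17599 genes, and the quasi-likelihood test was applied to the protocol contrast in controls, in cells at 1 µg/cm2, and to their difference. CPM values are TMM-scaled. Genes with every library of a group at 3 counts or fewer have only a lower bound of the fold, computed against 3 counts per library. The members and gene lists were chosen with earlier results of these data known. Named genes are the 12 largest called rises and falls with non-overlapping groups and a mean of at least 1 CPM, and the 6 with the smallest p at a mean of at least 50 CPM. Other genes were picked from the lists, or beside them, after their values were seen. Alternatives included DESeq2 1.42.0. In simulated counts for the control contrast (17230 genes), 60% of 100 genes with a log2 change of 1 and 96% of 100 with a change of 2 were recovered. Of the unchanged genes, 6 were called. The simulation changed far fewer genes than the 3860 called in the data and drew each library independently, so these shares need not hold for the data. A few genes are not reported here.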

Additional observations from a re-analysis of the deposited data

How the results depend on the processing

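The control comparison called 3860 genes, and 2832 to 4071 when 1 control library was left out. It called 3890 with RLE scaling (48% higher, against 50.7%), 4224 with no filter, 3575 at 1 CPM or more in 3 libraries, 3837 in robust mode, 3794 with the run of sample numbers in the labels as a term, 4240 with the 6 controls alone, 4240 with DESeq2 and 5564 without the 24-h libraries of experiment 2. None of the 3860 changed sign in any of these. The comparison at 1 µg/cm2 called 2943 genes, 4688 without the 24-h libraries of experiment 2, and 2152 to 3334 with 1 library left out. The test of the difference called 0 genes, 20 with no filter, 1 with the 12 libraries without 30 µg/cm2, 75 with DESeq2, 1766 without the 24-h libraries of experiment 2, and 0 to 63 with 1 library left out, where 63 came without the 24-h control of experiment 2. The cause was not tested.

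Whether replicate numbers pair the protocols cannot be told from these libraries. The correlations of same-numbered deviations were -0.159, -0.0693 and -0.0184, but same-numbered controls always lay in different runs of sample numbers. Pairs of a 24-h and a 7-day control in the same run had correlations of 0.0467 to 0.122, and pairs across runs -0.159 to -0.0184. A fit with the replicate block called 4486 genes in controls.

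Of 136 called genes named, 124 kept the call in every alternative, and the other 12 are given with their p-values in the results. *PPL* turned to 0.08 without the 24-h libraries of experiment 2, and ranged from -0.13 to 0.08 with 1 library left out. *MKI67* turned to -0.02 with RLE scaling, -0.01 at 1 CPM or more, -0.08 with the run term, -0.09 without the 24-h libraries of experiment 2, -0.01 with the controls alone and -0.02 with DESeq2, and ranged from -0.12 to 0.18 with 1 library left out. Neither passed the test in any of them. Precision is limited by 3 experiments per group and, for genes near the floor of 3 counts, by depth.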
